A study of Mus musculus with 12 samples.

Results

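The 42 genes described here encode the machinery that copies DNA: the MCM2-7 helicase ring, the factors that license origins and switch the helicase on, the replicative polymerases, the sliding clamp and its loader, the proteins that coat and join new strands, the enzymes that supply deoxynucleotides, and the pair that restores DNA methylation behind the fork. All 42 were found by symbol among the 24421 genes of the 12 count tables, and all 42 passed the filter on low counts that left 16364 genes for testing.

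The samples were mouse brain RNA-seq libraries in 4 groups of 3. The naive group was cortex that received no injection and carried no fusion. The other 3 groups were snap-frozen whole tumours that grew after injection into the brain of RCAS viruses, replication-competent avian retroviral vectors, each carrying 1 fusion of the Hippo pathway coactivator YAP1: first YAP1-MAMLD1-dR3R1, then YAP1-FAM118B, and last YAP1-TFE3. Where 3 values for the fusions stand together, they are in this order. The labels do not state the mouse strain, age, time from injection, the cell type that carried the viral receptor or the meaning of dR3R1. They also do not state whether the 3 samples of a group came from separate animals. The p-values therefore measure the spread between these samples, which may be technical where samples share an animal. The labels call the tissue of the naive samples a brain tumour although their source is given as normal cortex, and they describe RNA taken from cell cultures although the tumours were frozen.

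Before a cell divides, its origins are licensed when the origin recognition complex, Cdc6 and Cdt1 load MCM rings onto DNA. Cdc45 and the GINS complex then turn each ring into a moving helicase, and polymerases, clamp and ligase follow it while ribonucleotide reductase and thymidine enzymes supply the building blocks. Most of these genes are expressed at a low level in resting cells and are switched on by E2F transcription factors as cells enter S phase. Adult cortex consists largely of neurons and glia that no longer divide, but whether the naive cortex was adult is not stated.

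Library totals ranged from 19850220 to 24760814 counts. Levels are given below as CPM, counts divided by library size after scaling by TMM (a trimmed mean of ratios between libraries), whose factors ranged from 0.875 to 1.070 and were lowest in YAP1-TFE3. Summed neuron markers (12 genes) ranged from 9164 to 13461 CPM in naive cortex, 5528 to 7856 in YAP1-FAM118B, 553 to 1889 in YAP1-MAMLD1-dR3R1 and 109 to 1269 in YAP1-TFE3. Summed microglia markers (10 genes) ranged from 326 to 396 CPM in naive cortex, 7083 to 12031 in YAP1-MAMLD1-dR3R1, 2233 to 2476 in YAP1-FAM118B and 1570 to 4839 in YAP1-TFE3. All 12 neuron and all 10 microglia markers had counts in every group. The part of these cell types in the results below was not tested, and in whole tissue more cells of a dividing type cannot be told apart from more RNA per cell. Naive replicate 2 (612 Xist counts beside 2610 from 4 Y-linked genes) and YAP1-FAM118B replicate 2 (3859 beside 1693) held both Xist and Y-linked RNA, while each of the other 10 libraries held 9 or fewer counts of one or the other. Naive replicate 1 held 1 Xist and 2903 Y-linked counts, and naive replicate 3 held 6927 and 3. Libraries of YAP1-MAMLD1-dR3R1 and of YAP1-FAM118B were split in the same way, so none of these 3 groups came from 1 animal alone. In YAP1-TFE3 all 3 libraries held Y-linked RNA, and the number of animals cannot be told.

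Most of the replication genes were called higher in the tumours than in naive cortex, and none was called lower in any fusion. In YAP1-MAMLD1-dR3R1, 40 of the 42 were called higher, in YAP1-FAM118B 31 and in YAP1-TFE3 41 (edgeR quasi-likelihood test, Benjamini-Hochberg adjusted p under 0.05 over all 16364 genes). Over all genes tested, 34.4%, 21.3% and 40.6% were called higher in the same 3 comparisons. The median log2 fold change of the 42 against naive was 2.17, 1.42 and 2.73, beside 0.06, -0.05 and 0.23 over all genes tested. The 3 comparisons share the naive libraries, so they are not independent of each other.

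The 31 genes called higher in YAP1-FAM118B were called higher in all 3 fusions, against 18.6% of all genes tested. For 35 members every one of the 9 tumour libraries lay above every naive library, against 24.2% of all genes. Gins3 was called in no fusion, and Orc6 was called in YAP1-TFE3 alone. The members not called in YAP1-FAM118B were Orc6, Gins3, Gins4, Pold2, Pold3, Rfc1, Rfc2, Rfc3, Rpa1, Rpa2 and Dnmt1. In naive cortex the level per length of those 11 had a median of 33.6 TPM, a count scaled by exon length and library (range 5.48 to 42.9). For the 31 that were called the median was 5.08 (0.173 to 78.2), and the ranges overlapped. The naive level is also the baseline of each fold change, so this difference is not independent of the calls.

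**Figure D1:**
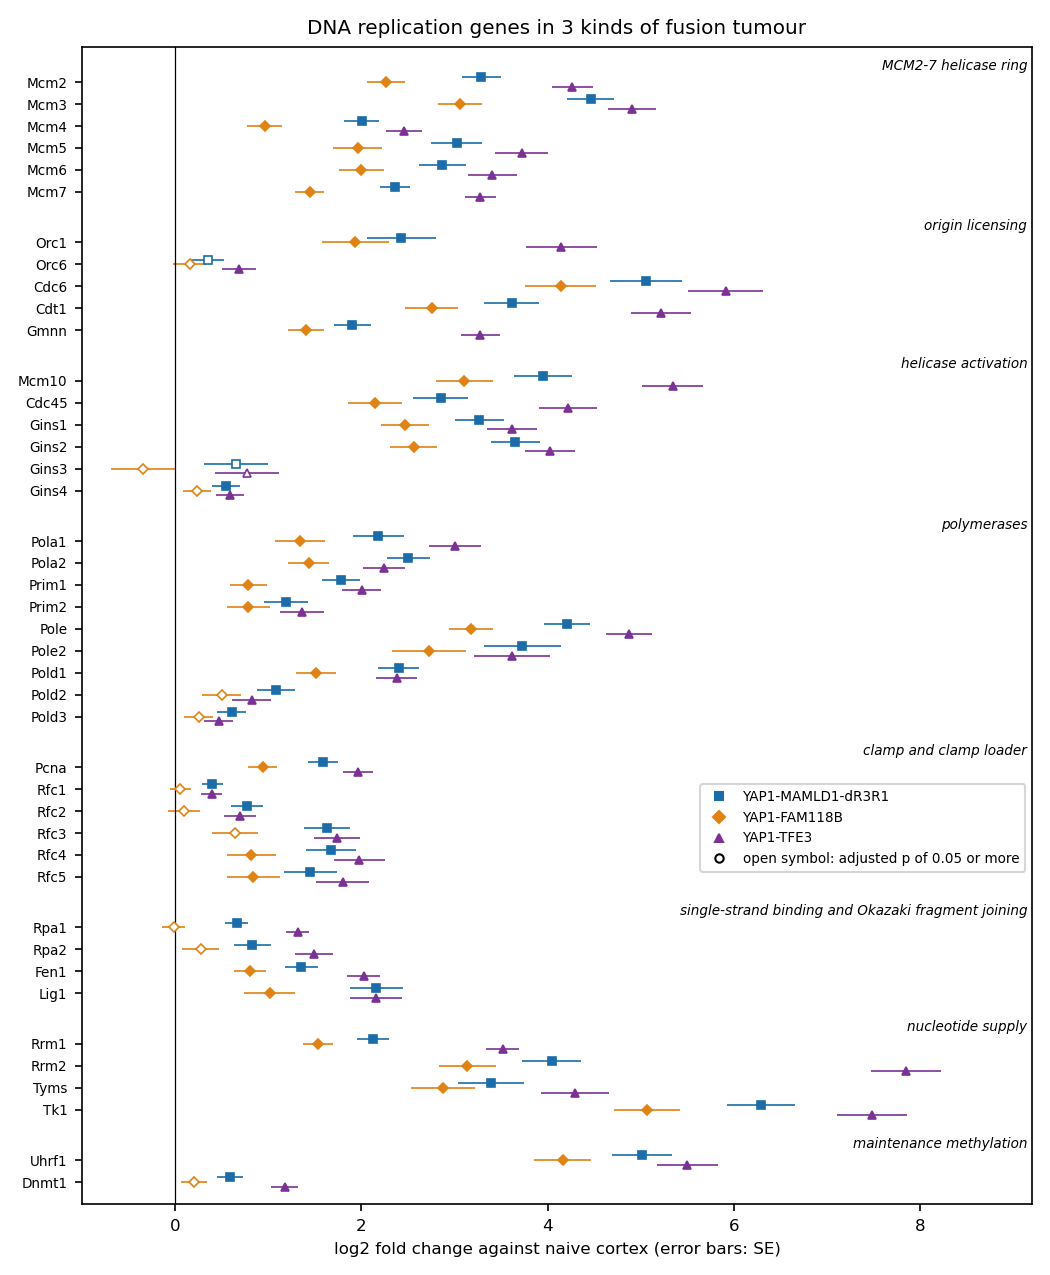
Fitted log2 fold change of each of the 42 genes in each fusion against naive cortex, grouped by role; bars are standard errors and open symbols did not pass an adjusted p of 0.05. Rrm2 and Tk1 in YAP1-TFE3 lie farthest to the right at 7.85 and 7.48, and the YAP1-FAM118B symbol lies left of both others for all 42 genes.

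The fusions did not raise the set to the same level. YAP1-FAM118B had the lowest mean of the 3 fusions for all 42 members, while YAP1-TFE3 had the highest mean for 34 and YAP1-MAMLD1-dR3R1 for the remaining 8 (Pola2, Pole2, Pold1, Pold2, Pold3, Rfc1, Rfc2 and Lig1). YAP1-FAM118B was called lower than YAP1-MAMLD1-dR3R1 for 27 members and higher for 0 (13.5% of all genes were called lower and 12.7% higher), with a median log2 difference of -0.85. This count moved with the libraries used: it was 6 without YAP1-MAMLD1-dR3R1 replicate 2, 8 without YAP1-MAMLD1-dR3R1 replicate 3, 9 without YAP1-FAM118B replicate 1, 10 without YAP1-FAM118B replicate 2, 17 without YAP1-FAM118B replicate 3, 16 without naive replicate 1 and 36 without YAP1-MAMLD1-dR3R1 replicate 1.

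YAP1-TFE3 was called higher than YAP1-FAM118B for 37 members (28% of all genes) and higher than YAP1-MAMLD1-dR3R1 for 17 (22.6% of all genes), and lower for 0 in both (23.7% and 16.9% of all genes). The median log2 differences were 1.28 and 0.47. The second count was 11 without YAP1-TFE3 replicate 3. With libraries scaled by total count only, all values of YAP1-TFE3 shifted down, by 0.19 (log2) against naive, 0.19 against YAP1-MAMLD1-dR3R1 and 0.21 against YAP1-FAM118B. The share of called genes that were higher then went from 57.2% to 42% against YAP1-MAMLD1-dR3R1 and from 54.2% to 41.3% against YAP1-FAM118B, and the members called higher numbered 13 and 33. Over all settings, filters and left-out libraries included, the shift reached -0.20, -0.19 and -0.27, so differences of YAP1-TFE3 of that size or smaller depend on the setting.

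In YAP1-MAMLD1-dR3R1 and YAP1-TFE3 most members had their lowest value in the same library, whereas in naive cortex and YAP1-FAM118B the lowest values were spread over all 3 libraries (12, 13 and 17 members, and 14 in each). YAP1-MAMLD1-dR3R1 replicate 1 had the lowest value of its group for 41 of the 42, and the summed level of all members was 1161 CPM there against 1722 and 1648 in replicates 2 and 3. That library also had the lowest microglia sum of its group (7083 CPM against 11901 and 12031). Its neuron sum was the highest (1889 against 1364 and 553). Its summed monocyte and macrophage markers (5010 against 2874 and 4155) and astrocyte markers (7036 against 4512 and 4364) were the highest too. It was also the one with Xist RNA (12686 counts, against 0 and 1). The part of these differences in its lower replication values was not tested. The 3 YAP1-FAM118B libraries had nearly equal member sums of 895, 904 and 896 CPM, with a median coefficient of variation over members of 9.53%, although their summed fibroblast and meningeal markers were 13919, 3311 and 18334 CPM. In YAP1-TFE3, replicate 1 was lowest of its group for 33 members and replicate 3 highest for 30.

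The upstream sequences of the members were read because so many of them rose together. RefSeq promoters (GRCm38.p6; 250 bases before to 50 after a start) were found for 34 of the 42 members; Mcm4, Gmnn, Gins1, Gins2, Gins4, Prim2, Pole and Rfc2 were not matched. Each was searched on both strands for the E2F-type words TTTCCCGC, TTTGGCGC, TTTGCCGC and TTTCGCGC. Of the 34 members 16 (47.1%) held at least 1 word, against 553 of 17224 genes of the files with a promoter (3.21%). With TTTCCCGC and TTTGGCGC alone the share of members was 38.2%, and that of all genes 2.33%. The windows below, 5′ to 3′ on the strand of the gene with the E2F-type words in capitals, are shown for 6 of the 12 members that held a word and were called higher in all 3 fusions, chosen as examples after their values were seen, and for Gins3, which held a word and was called in no fusion. Dnmt1, Pold3 and Rfc3 also held a word and were not called in YAP1-FAM118B.
Mcm5 (chr8:75109326-75109397, + strand): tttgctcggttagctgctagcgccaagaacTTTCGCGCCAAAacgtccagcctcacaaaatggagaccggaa
Mcm6 (chr1:128359715-128359845, - strand): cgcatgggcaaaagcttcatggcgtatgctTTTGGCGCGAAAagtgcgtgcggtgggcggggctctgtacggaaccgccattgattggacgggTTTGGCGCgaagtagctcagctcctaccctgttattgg
Orc1 (chr4:108579397-108579464, + strand): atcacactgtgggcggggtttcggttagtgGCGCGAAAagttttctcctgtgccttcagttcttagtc
Cdc6 (chr11:98907983-98908050, + strand): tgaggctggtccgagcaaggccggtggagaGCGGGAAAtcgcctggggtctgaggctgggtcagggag
Pola1 (chrX:93632256-93632323, - strand): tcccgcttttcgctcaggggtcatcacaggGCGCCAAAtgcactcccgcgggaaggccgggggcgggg
Uhrf1 (chr17:56304098-56304165, + strand): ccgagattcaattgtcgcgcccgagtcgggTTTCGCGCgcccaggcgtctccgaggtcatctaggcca
Gins3 (chr8:95633488-95633555, + strand): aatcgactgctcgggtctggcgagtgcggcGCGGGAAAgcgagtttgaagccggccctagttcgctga

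With the start counted as 0, the words began at position -153 in Mcm5 (2 overlapping words on opposite strands), at -110, -106 and -47 in Mcm6 (the first pair overlapping on opposite strands), -27 in Orc1, -138 in Cdc6, -138 in Pola1, -185 in Uhrf1 (in the second of its 2 RefSeq promoters; the first held none) and -41 in Gins3. Rrm1, Rrm2, Tyms and Tk1 held no word in this window, and these nucleotide supply genes include the 2 members with the largest fold changes in YAP1-TFE3. The median log2 fold change of the 16 members with a word was 2.42 in YAP1-MAMLD1-dR3R1, 1.72 with YAP1-FAM118B and 3.34 with YAP1-TFE3, against 1.73, 0.89 and 2.01 for the 18 without one, with ranges that overlapped widely. A word in a window is a match of letters, not a bound site.

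The CCAAT box (CCAAT on either strand), which binds the factor NF-Y, was found in 22 of the 34 members (64.7%) and in 42% of all genes. The CHR word TTTGAA, typical of genes of late cell cycle phases, was found in 17.6% of the members and 17.7% of all genes, but in 12 of 17 mitosis genes with a promoter (70.6%). Only 1 of those 17 held an E2F-type word. Of the nucleotide supply genes, Rrm1 held 2 CCAAT boxes, and Tk1 and Tyms held 0. The Rrm2 promoter held 1 CCAAT box, at position -50, shown in capitals because Rrm2 changed most in YAP1-TFE3.
Rrm2 (chr12:24708174-24708238, + strand): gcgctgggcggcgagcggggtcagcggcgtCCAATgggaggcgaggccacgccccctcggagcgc

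**Figure D2:**
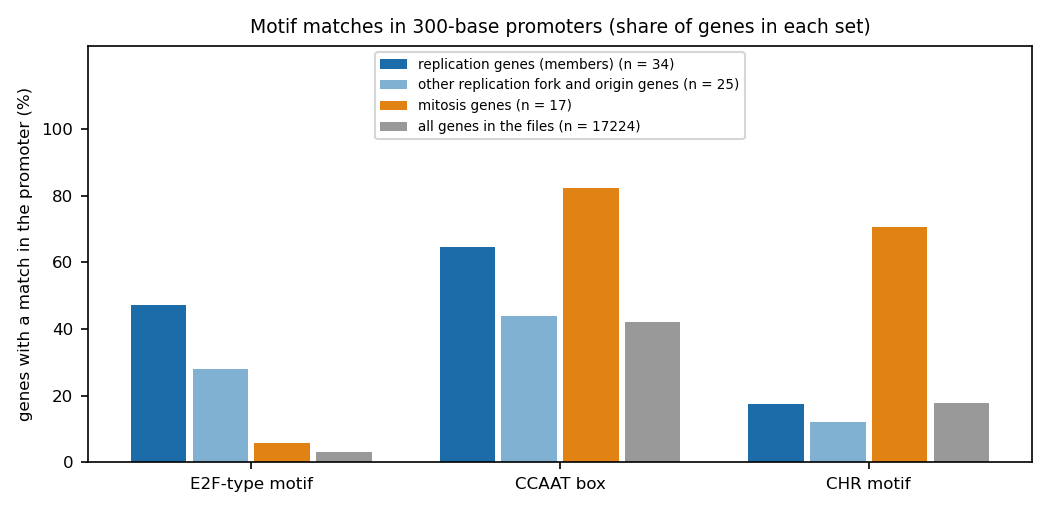
Share of genes (%) with at least 1 match in a RefSeq promoter for 3 motifs, in 4 gene sets whose sizes are in the legend. E2F-type words were found in 47.1% of the replication genes and 5.88% of the mitosis genes, and the CHR word in 17.6% and 70.6%.

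The 6 genes of the MCM2-7 ring, the helicase that opens the double helix, rose in all 3 fusions. Their median log2 fold change was 2.95 in YAP1-MAMLD1-dR3R1, 1.98 with YAP1-FAM118B and 3.56 with YAP1-TFE3. Mcm3 changed most: replicates 1 to 3 had 3.12, 3.52 and 4.35 CPM in naive cortex, 61.02, 94.7 and 86.4 in YAP1-MAMLD1-dR3R1, 35.1, 28.2 and 28.4 in YAP1-FAM118B and 88.6, 102 and 138 in YAP1-TFE3. The tumour libraries all lay far above the naive ones, YAP1-FAM118B lay below both other fusions, and YAP1-TFE3 overlapped with YAP1-MAMLD1-dR3R1. The fold changes against naive were 4.46 ± 0.25 in YAP1-MAMLD1-dR3R1, 3.06 ± 0.24 with YAP1-FAM118B and 4.90 ± 0.26 with YAP1-TFE3 (log2 ± SE; adjusted p = 2.97e-06, 2.45e-05 and 5.01e-07).

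Mcm4 changed least of the ring, from 11.9, 13.7 and 13.9 CPM in naive cortex to 40.8, 62.3 and 55.4 in YAP1-MAMLD1-dR3R1, 22.4, 28.6 and 25.8 in YAP1-FAM118B and 59.8, 73.5 and 84.03 in YAP1-TFE3. No tumour library reached down to the naive range, and the smallest change was 0.96 ± 0.18 (log2; adjusted p = 0.00354) in YAP1-FAM118B. Mcm2 and Mcm7 were the only ring genes called higher in YAP1-TFE3 than in YAP1-MAMLD1-dR3R1. Mcm2 had 5.01, 4.98 and 4.75 CPM in naive cortex, 33.1, 57.9 and 53.1 in YAP1-MAMLD1-dR3R1, 27.01, 21.6 and 22.2 in YAP1-FAM118B and 83.8, 97.1 and 103 in YAP1-TFE3. Mcm7 had 11.5, 11.1 and 11.2 CPM in naive cortex, 43.2, 70.6 and 59.5 in YAP1-MAMLD1-dR3R1, 30.2, 31.2 and 30.5 in YAP1-FAM118B and 114, 114 and 101 in YAP1-TFE3. In both genes the 4 groups did not overlap at all, and YAP1-TFE3 exceeded YAP1-MAMLD1-dR3R1 by 0.98 ± 0.19 and 0.92 ± 0.16 (log2; adjusted p = 0.0032 and 0.00135).

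Mcm5 and Mcm6 rose by 1.96 to 3.72 and by 2.0 to 3.41 on the log2 scale across the 3 fusions. Per length, the 6 subunits, which form the ring in equal number, were closer to each other in the tumours than in naive cortex. The highest was 3.27 ± 0.51 times the lowest in naive cortex (SD, n = 3), 1.90 ± 0.125 times in YAP1-MAMLD1-dR3R1, 1.78 ± 0.11 times with YAP1-FAM118B and 2.04 ± 0.23 times with YAP1-TFE3, with no tumour library in the naive range of 2.75 to 3.77. In naive cortex Mcm7 was the highest and Mcm3 the lowest. On the other strand, Ap4m1 and Cops6 together cover 13% of the exon bases of Mcm7. Cops6 was at 81.6 CPM in naive cortex and 77.6, 79.2 and 84.4 in the 3 fusions in order. Ap4m1 was at 10.3 CPM in naive cortex and 15.7, 12.9 and 9.21 in the fusions. The part of such reads in Mcm7 and in these ratios was not tested. Lengths were those of all exons of a gene. With the principal transcript alone, the ratio in YAP1-FAM118B was 2.35 ± 0.36 against 3.57 ± 0.74 in naive cortex. The gap then all but closed, with YAP1-FAM118B replicate 3 at 2.746 and naive replicate 3 at 2.748.

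Among the origin licensing genes, the loaders rose steeply and Orc6 changed least. Cdc6, the ATPase that helps load the ring, was close to absent in naive cortex, with 4 to 8 counts a library. It had 0.205, 0.335 and 0.176 CPM in naive cortex, 5.71, 9.91 and 8.78 in YAP1-MAMLD1-dR3R1, 4.68, 3.99 and 4.24 in YAP1-FAM118B and 10.9, 12.5 and 20.8 in YAP1-TFE3. The groups were fully separated in the order naive, YAP1-FAM118B, YAP1-MAMLD1-dR3R1, YAP1-TFE3, although of the differences between fusions only YAP1-TFE3 against YAP1-FAM118B passed (1.77 ± 0.32 log2, adjusted p = 0.00142). Against naive the changes were 5.06 ± 0.39, 4.14 ± 0.38 and 5.91 ± 0.40 in the 3 fusions in order (adjusted p = 8.99e-06, 5.74e-05 and 1.99e-06).

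Cdt1, the other loading factor, and Gmnn, which encodes geminin, the protein that blocks Cdt1, both stood out in YAP1-TFE3. Cdt1 had 2.05, 1.55 and 0.968 CPM in naive cortex, 13.4, 22.5 and 20.2 in YAP1-MAMLD1-dR3R1, 12.2, 8.31 and 10.4 in YAP1-FAM118B and 59.3, 57.1 and 54.4 in YAP1-TFE3. Gmnn had 3.04, 3.14 and 3.03 CPM in naive cortex, 8.07, 12.9 and 13.5 in YAP1-MAMLD1-dR3R1, 7.88, 8.23 and 8.30 in YAP1-FAM118B and 31, 31.6 and 26.9 in YAP1-TFE3. All YAP1-TFE3 libraries lay well above those of the other fusions, by 1.60 ± 0.27 for Cdt1 and 1.38 ± 0.19 for Gmnn against YAP1-MAMLD1-dR3R1 (log2; adjusted p = 0.00127 and 4.50e-04). Per length, the level of Cdt1 relative to its inhibitor was 0.269 ± 0.097 in naive cortex, 0.889 ± 0.068 in YAP1-MAMLD1-dR3R1, 0.690 ± 0.146 with YAP1-FAM118B and 1.04 ± 0.06 with YAP1-TFE3 (SD, n = 3), and no tumour library overlapped with naive cortex.

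Orc1, the origin recognition subunit whose level follows the cell cycle, rose from 0.293 to 0.528 CPM in naive cortex to 1.34 to 2.17 in YAP1-FAM118B, 1.64 to 3.33 in YAP1-MAMLD1-dR3R1 and 7.18 to 8.6 in YAP1-TFE3. Orc6, another subunit of the same complex, had 20.6, 23.4 and 15.3 CPM in naive cortex, 20.8, 30.2 and 24.4 in YAP1-MAMLD1-dR3R1, 21.7, 23.1 and 21.4 in YAP1-FAM118B and 33.8, 32.6 and 28.6 in YAP1-TFE3. Only the YAP1-TFE3 libraries lay wholly above the naive ones, and its change there was 0.68 ± 0.18 (log2; adjusted p = 0.00699), against 0.35 ± 0.18 and 0.16 ± 0.18 in YAP1-MAMLD1-dR3R1 and YAP1-FAM118B (adjusted p = 0.119 and 0.52). Vps35 on the other strand covers 7.1% of the exon bases of Orc6 and was at 253 CPM in naive cortex and 319 in YAP1-TFE3, and its part in the counts of Orc6 was not tested.

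The helicase activators divided in the same way. Mcm10, which helps start the assembled helicase, had 0.739, 0.503 and 0.440 CPM in naive cortex, 6.21, 8.99 and 11.04 in YAP1-MAMLD1-dR3R1, 4.35, 5.41 and 4.84 in YAP1-FAM118B and 18.4, 21.5 and 28.97 in YAP1-TFE3. The groups were again separate and in the order seen for Cdc6, with changes against naive of 3.95 ± 0.31, 3.10 ± 0.31 and 5.34 ± 0.33 in the 3 fusions in order (log2; adjusted p = 1.03e-05, 7.98e-05 and 1.19e-06). Cdc45, the partner of the MCM ring in the moving helicase, rose by 2.15 to 4.22 and Gins1 by 2.47 to 3.61 across the fusions.

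The GINS complex holds 1 copy each of its 4 subunits, yet the 4 genes did not move alike. Gins2 rose by 2.56 to 4.03 across the fusions (70.7% of its exon bases are covered by Gse1 on the other strand, and the labels do not state the strand setting of the counting; Gse1 itself was called lower in all 3 fusions). Gins4 had 16.6, 13.4 and 14.3 CPM in naive cortex, 19.5, 21.8 and 23.5 in YAP1-MAMLD1-dR3R1, 17.2, 16.1 and 18.8 in YAP1-FAM118B and 21.6, 19.3 and 25.7 in YAP1-TFE3. The YAP1-FAM118B libraries overlapped with naive cortex, and the changes in the other fusions were small, 0.55 ± 0.15 in YAP1-MAMLD1-dR3R1 and 0.59 ± 0.15 in YAP1-TFE3 (log2; adjusted p = 0.00934 and 0.00541).

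Gins3 had 3.69, 3.10 and 5.89 CPM in naive cortex, 4.11, 8.31 and 7.58 in YAP1-MAMLD1-dR3R1, 3.04, 3.11 and 3.83 in YAP1-FAM118B and 5.45, 7.004 and 9.24 in YAP1-TFE3. All 3 fusions overlapped with naive cortex, where replicate 3 was the high one, and the changes were 0.66 ± 0.34, -0.35 ± 0.34 and 0.77 ± 0.34 in the 3 fusions in order (log2; adjusted p = 0.118, 0.463 and 0.0659). Per length, the highest GINS gene, Gins4 in every group, was 39.6 ± 14.0 times the lowest in naive cortex, 7.01 ± 2.23 times in YAP1-MAMLD1-dR3R1, 10.5 ± 0.8 times with YAP1-FAM118B and 6.36 ± 1.40 times with YAP1-TFE3 (SD, n = 3). The lowest was Gins2 in naive cortex and Gins3 in every fusion. The level per length of Gins2 depends on how reads in its overlap with Gse1 were counted, which is not stated. The naive ratio and its lowest gene are therefore uncertain.

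**Figure D3:**
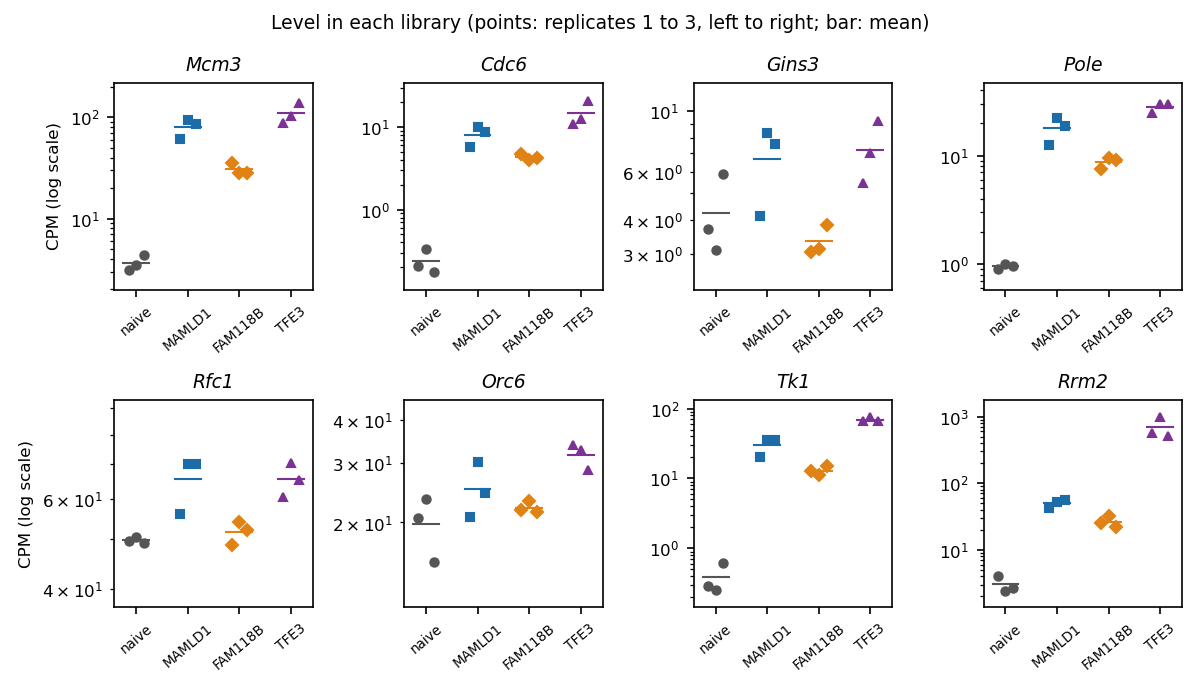
CPM on a log scale of 8 members in each of the 12 libraries, by group, with the mean as a bar. Mcm3, Cdc6, Pole, Tk1 and Rrm2 separate tumours from naive cortex, while Gins3 overlaps in every fusion, Orc6 in 2 fusions and Rfc1 in YAP1-FAM118B.

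All 9 polymerase genes were called higher in YAP1-MAMLD1-dR3R1 and YAP1-TFE3, and 7 in YAP1-FAM118B. Pole, the catalytic subunit of the polymerase that copies the leading strand, had 0.903, 1.01 and 0.968 CPM in naive cortex, 12.5, 22.2 and 18.7 in YAP1-MAMLD1-dR3R1, 7.55, 9.57 and 9.04 in YAP1-FAM118B and 24.5, 30.1 and 30.1 in YAP1-TFE3. It rose in each fusion, with changes of 4.21 ± 0.24, 3.18 ± 0.23 and 4.87 ± 0.25 in the 3 fusions in order (log2; adjusted p = 3.09e-06, 2.16e-05 and 5.01e-07), and the groups did not overlap. Its partner Pole2 rose by 2.73 to 3.73 from 7 to 20 counts a library in naive cortex.

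The lagging-strand polymerase held genes with unequal changes. Pold1, its catalytic subunit, rose by 2.40, 1.51 and 2.38 in the 3 fusions in order, whereas the values of its accessory subunits Pold2 and Pold3 changed less. Pold2 had 16.7, 14.7 and 18.4 CPM in naive cortex, 28.2, 43.2 and 34.1 in YAP1-MAMLD1-dR3R1, 23.4, 26.2 and 20.8 in YAP1-FAM118B and 23.1, 28.1 and 36.95 in YAP1-TFE3. Pold3 had 20.8, 20.3 and 19.97 CPM in naive cortex, 23.95, 36.4 and 32.7 in YAP1-MAMLD1-dR3R1, 25.3, 22.7 and 24.7 in YAP1-FAM118B and 25.1, 27.8 and 31.4 in YAP1-TFE3. Every tumour library of both genes lay above the naive ones (24.2% of all genes), but the changes in YAP1-FAM118B, 0.50 ± 0.21 and 0.25 ± 0.16, did not pass (log2; adjusted p = 0.0953 and 0.251). In YAP1-MAMLD1-dR3R1 they were 1.08 ± 0.21 and 0.61 ± 0.16, and in YAP1-TFE3 0.82 ± 0.21 and 0.47 ± 0.16, the last passing under 6 of 23 alternative settings.

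Per length, Pold3 was 4.28 ± 0.89 times Pold1 in naive cortex and 1.22 ± 0.11, 1.78 ± 0.33 and 1.11 ± 0.07 times in the 3 fusions in order (SD, n = 3). Pold2 went from 6.61 ± 1.45 times Pold1 to 2.63 ± 0.42, 3.21 ± 0.14 and 2.18 ± 0.41 times. Both ratios were lower in all 9 tumour libraries than in all naive ones. Of the primer-making polymerase, Pola1 rose by 1.34 to 3.0 and Pola2 by 1.44 to 2.50, and of its primase Prim1 by 0.78 to 2.0 and Prim2 by 0.78 to 1.36. The ratio of Pola2 to Pola1 was 0.911 ± 0.173 in YAP1-TFE3, below the 1.17 to 1.97 of the naive libraries, and 1.89 ± 0.23 and 1.59 ± 0.24 in the other fusions.

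Pcna, the sliding clamp that tethers polymerases to DNA, had 35.4, 35.1 and 31.8 CPM in naive cortex, 77.3, 111 and 119 in YAP1-MAMLD1-dR3R1, 65.1, 66.2 and 64.8 in YAP1-FAM118B and 118, 134 and 147 in YAP1-TFE3. The 4 groups were separate except for an overlap of YAP1-TFE3 with YAP1-MAMLD1-dR3R1, and the changes against naive were 1.59 ± 0.16, 0.94 ± 0.16 and 1.96 ± 0.16 in the 3 fusions in order (log2; adjusted p = 3.11e-05, 0.00169 and 6.12e-06). Of the clamp loader genes, all 5 were called higher in YAP1-MAMLD1-dR3R1 and YAP1-TFE3, but only Rfc4 and Rfc5 in YAP1-FAM118B.

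Rfc1, the large subunit that is particular to this loader, changed least of the loader genes in each fusion. Among all 42 members it had the smallest change in YAP1-TFE3 only. It had 49.6, 50.5 and 49.2 CPM in naive cortex, 56.01, 70.2 and 70.2 in YAP1-MAMLD1-dR3R1, 48.8, 54.1 and 51.97 in YAP1-FAM118B and 60.5, 70.5 and 65.1 in YAP1-TFE3. YAP1-FAM118B overlapped with naive cortex, and the other fusions lay just above it by 0.40 ± 0.11 and 0.39 ± 0.11 (log2; adjusted p = 0.0116 and 0.0101 in YAP1-MAMLD1-dR3R1 and YAP1-TFE3), the latter passing under 9 of 23 alternative settings. Rfc2 had 24.2, 27.3 and 22.96 CPM in naive cortex, 31.1, 48.8 and 47 in YAP1-MAMLD1-dR3R1, 28.98, 24.3 and 26.3 in YAP1-FAM118B and 36.5, 40.96 and 42.7 in YAP1-TFE3. Its YAP1-FAM118B libraries overlapped with naive cortex too, and its changes elsewhere were 0.77 ± 0.17 and 0.69 ± 0.17 (adjusted p = 0.00319 and 0.00466). The exons of Rfc2 overlap over 19.1% with Lat2 on the other strand, an immune gene that went from 1.47 CPM in naive cortex to 135, 34.5 and 32.6 in the 3 fusions in order, and a share of such reads in Rfc2 was not tested.

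Rfc3 had 5.46, 7.66 and 5.45 CPM in naive cortex, 12.4, 22.3 and 22.9 in YAP1-MAMLD1-dR3R1, 8.58, 9.99 and 10.5 in YAP1-FAM118B and 19.1, 19.7 and 23.2 in YAP1-TFE3. Rfc4 had 4.31, 3.27 and 4.18 CPM in naive cortex, 8.89, 15.4 and 13.3 in YAP1-MAMLD1-dR3R1, 7.02, 6.97 and 6.73 in YAP1-FAM118B and 12.5, 12.7 and 21.1 in YAP1-TFE3. All tumour libraries of both lay above naive cortex. In YAP1-FAM118B the change of Rfc3 was 0.64 ± 0.25 and did not pass, while that of Rfc4 was 0.82 ± 0.27 and did (log2; adjusted p = 0.0733 and 0.0425), although under 14 of 23 alternative settings only. In YAP1-TFE3 they changed by 1.74 ± 0.25 and 1.98 ± 0.27. Rfc5 rose by 0.84 to 1.80 across the fusions, passing in YAP1-FAM118B under 15 of 23 settings. On the other strand, Eif4a2 covers 13.4% of the exon bases of Rfc4 and went from 739.6 CPM in naive cortex to 287, 520.0 and 249.4 in the 3 fusions in order, and Wsb2 covers 15.4% of those of Rfc5 and went from 297 CPM to 141, 244 and 682. The part of such reads in Rfc4 and Rfc5 was not tested. As in the ring, the spread among the 5 loader genes per length narrowed. The highest-to-lowest ratio went from 4.93 ± 1.28 in naive cortex to 2.38 ± 0.14, 2.53 ± 0.17 and 2.09 ± 0.07 in the 3 fusions in order (SD, n = 3). The lowest was Rfc5 in naive cortex, YAP1-MAMLD1-dR3R1 and YAP1-FAM118B, and Rfc2 in YAP1-TFE3. Both overlap genes on the other strand, so these ratios are uncertain.

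Rpa1 and Rpa2, subunits of the protein that coats single-stranded DNA, were raised in YAP1-TFE3 and less in YAP1-MAMLD1-dR3R1. Rpa1 had 51.96, 60.9 and 69.7 CPM in naive cortex, 93.4, 102 and 93.5 in YAP1-MAMLD1-dR3R1, 58.6, 61.5 and 60.3 in YAP1-FAM118B and 138, 149 and 167 in YAP1-TFE3. Rpa2 had 14.3, 14.4 and 11.4 CPM in naive cortex, 17.8, 29.7 and 23.9 in YAP1-MAMLD1-dR3R1, 15.5, 18.8 and 14.3 in YAP1-FAM118B and 33.1, 41.1 and 38.8 in YAP1-TFE3. The YAP1-FAM118B libraries of both overlapped with naive cortex, and the differences there were -0.02 ± 0.12 and 0.27 ± 0.20 (log2; adjusted p = 0.926 and 0.318). YAP1-TFE3 lay above every library of the other groups, by 0.65 ± 0.12 and 0.66 ± 0.20 against YAP1-MAMLD1-dR3R1 (adjusted p = 0.00252 and 0.0243) and by 1.32 ± 0.13 and 1.49 ± 0.20 against naive.

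Lig1, the ligase that seals Okazaki fragments, had 10.4, 10.5 and 14.2 CPM in naive cortex, 30.4, 59.2 and 67.5 in YAP1-MAMLD1-dR3R1, 23.2, 23.3 and 24.5 in YAP1-FAM118B and 41.9, 52.1 and 62.4 in YAP1-TFE3. Every tumour library exceeded naive cortex, with changes of 2.16 ± 0.28, 1.01 ± 0.27 and 2.16 ± 0.28 in the 3 fusions in order (log2; adjusted p = 1.31e-04, 0.0196 and 9.18e-05). Within YAP1-MAMLD1-dR3R1, replicate 1 was far below the other 2. Fen1, the nuclease that trims the fragments, rose by 0.80 to 2.02, but 84.1% of its exon bases are covered by genes on the other strand, among them Tmem258, which went from 14.4 CPM in naive cortex to 32.5, 33.2 and 35.1 in the 3 fusions in order, so the values of Fen1 are uncertain.

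Nucleotide supply held the widest changes of the set. Rrm2, the small subunit of ribonucleotide reductase, which carries the radical that makes deoxyribonucleotides and is made in S phase, had 3.98, 2.43 and 2.64 CPM in naive cortex, 42.1, 52.3 and 54.9 in YAP1-MAMLD1-dR3R1, 25.4, 32.1 and 22.2 in YAP1-FAM118B and 570.5, 1002 and 519 in YAP1-TFE3. The lowest YAP1-TFE3 library was 9.44 times the highest library of any other group, and replicate 2 was the highest among them. The changes against naive were 4.04 ± 0.32, 3.13 ± 0.31 and 7.85 ± 0.38 in the 3 fusions in order (log2; adjusted p = 9.80e-06, 7.71e-05 and 4.15e-07). YAP1-TFE3 exceeded YAP1-MAMLD1-dR3R1 by 3.81 ± 0.31 and YAP1-FAM118B by 4.71 ± 0.32 (adjusted p = 2.32e-05 and 8.96e-06).

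Rrm1, the large subunit that holds the active site, had 21.3, 20.3 and 22.8 CPM in naive cortex, 83.7, 95.9 and 101 in YAP1-MAMLD1-dR3R1, 63.1, 56.1 and 67.2 in YAP1-FAM118B and 236, 195 and 306 in YAP1-TFE3. The 4 groups were separate, with changes against naive of 2.12 ± 0.17, 1.53 ± 0.17 and 3.52 ± 0.18 in the 3 fusions in order (log2; adjusted p = 1.03e-05, 1.29e-04 and 5.01e-07). Under TMM scaling, the difference between YAP1-TFE3 and YAP1-MAMLD1-dR3R1 passed a test against a 2-fold change for only 2 members. These were Rrm1 and Rrm2 (edgeR glmTreat, adjusted p = 0.0467 and 1.34e-04).

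Per length, the 2 subunits changed places. Rrm2 was 0.341, 0.218 and 0.211 times Rrm1 in the naive libraries, 0.917, 0.994 and 0.990 times in YAP1-MAMLD1-dR3R1, 0.733, 1.04 and 0.601 times in YAP1-FAM118B and 4.40, 9.37 and 3.09 times in YAP1-TFE3. The small subunit was thus below the large one in naive cortex, near it in YAP1-MAMLD1-dR3R1 and YAP1-FAM118B, and above it in all 3 YAP1-TFE3 libraries. The group means were 0.257 ± 0.073, 0.967 ± 0.043, 0.792 ± 0.226 and 5.62 ± 3.31 (SD, n = 3). With 3 libraries against 3 an exact two-sided permutation test cannot give a p below 0.1, and no test of the ratio was made.

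**Figure D4:**
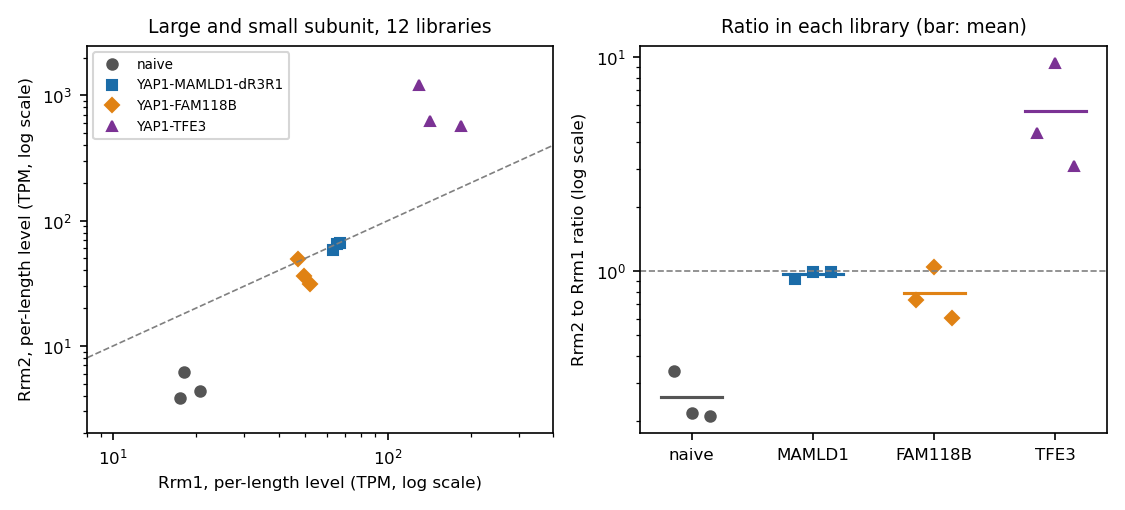
Left, per-length levels (TPM, log scales) of Rrm2 against Rrm1 in the 12 libraries, with a dashed line where both are equal; right, their ratio by library on a log scale with the mean as a bar. The YAP1-TFE3 libraries lie above the line at ratios of 3.09 to 9.37, and the naive libraries below it at 0.211 to 0.341.

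Tk1, which salvages thymidine in S phase, was nearly absent in naive cortex, with 6 to 14 counts a library. It had 0.287, 0.251 and 0.616 CPM in naive cortex, 20.3, 35.9 and 35.1 in YAP1-MAMLD1-dR3R1, 12.8, 11.3 and 14.9 in YAP1-FAM118B and 66.1, 75.9 and 66.1 in YAP1-TFE3. No group overlapped with another, and the changes against naive were 6.29 ± 0.37, 5.07 ± 0.35 and 7.48 ± 0.38 in the 3 fusions in order (log2; adjusted p = 3.09e-06, 1.64e-05 and 5.01e-07). Tyms, which makes thymidylate, rose by 2.87 to 4.29. Its difference between YAP1-TFE3 and YAP1-MAMLD1-dR3R1 was 0.90 ± 0.32 (adjusted p = 0.0447) and passed under 6 of 23 alternative settings.

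Uhrf1, which recognises hemimethylated DNA behind the fork, and Dnmt1, the methyltransferase it recruits there, differed in how they responded. Uhrf1 had 1.44, 1.72 and 1.06 CPM in naive cortex, 28.8, 59.5 and 47.98 in YAP1-MAMLD1-dR3R1, 24.9, 26.8 and 23.8 in YAP1-FAM118B and 53.9, 56.5 and 80.5 in YAP1-TFE3. Dnmt1 had 62.4, 59.9 and 60.2 CPM in naive cortex, 76.2, 99.5 and 97.8 in YAP1-MAMLD1-dR3R1, 66.4, 77.6 and 66.2 in YAP1-FAM118B and 119, 137 and 156 in YAP1-TFE3. All tumour libraries of both lay above naive cortex, but Uhrf1 rose by 5.01 ± 0.32, 4.16 ± 0.31 and 5.50 ± 0.33 in the 3 fusions in order (log2; adjusted p = 4.63e-06, 2.18e-05 and 1.01e-06), while Dnmt1 changed by 0.58 ± 0.14, 0.20 ± 0.14 and 1.17 ± 0.14 (adjusted p = 0.00455, 0.287 and 5.27e-05), not passing in YAP1-FAM118B. Per length, Uhrf1 was 0.0397 ± 0.0096 times Dnmt1 in naive cortex and 0.840 ± 0.189, 0.619 ± 0.025 and 0.792 ± 0.089 times in the 3 fusions in that order (SD, n = 3).

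Other genes of the pathway were counted in lists that, like the members, were chosen with earlier results of these data known. Of 30 other fork and origin genes, 20 were called higher and 2 lower in YAP1-MAMLD1-dR3R1, 12 and 0 in YAP1-FAM118B, and 24 and 1 in YAP1-TFE3. Dbf4, the activating partner of the kinase that fires origins, rose by 4.11 ± 0.21, 3.33 ± 0.21 and 5.57 ± 0.22 (log2 ± SE), and Ticrr, which acts in origin firing, by 5.04 ± 0.39, 3.69 ± 0.38 and 5.22 ± 0.39. The genes called lower were Orc3 (-0.41 ± 0.10 in YAP1-MAMLD1-dR3R1 and -0.29 ± 0.10 in YAP1-TFE3) and Orc4 (-0.34 ± 0.11 in YAP1-MAMLD1-dR3R1), both core subunits of the complex to which Orc1 and Orc6 belong.

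All 8 histone supply and chromatin assembly genes were called higher in YAP1-MAMLD1-dR3R1 and YAP1-TFE3, and 6 in YAP1-FAM118B. The histone chaperone Asf1b rose by 4.48 ± 0.29, 3.59 ± 0.28 and 6.01 ± 0.31 in the 3 fusions in order, and Chaf1b, a subunit of the chromatin assembly factor that works with Pcna, by 5.12 ± 0.48, 4.47 ± 0.47 and 6.95 ± 0.51. Of 11 other nucleotide enzymes, 5, 3 and 6 were called higher, beside 34.4%, 21.3% and 40.6% of all genes, and 1 was called lower in each fusion. In YAP1-MAMLD1-dR3R1 this was Nme1, a nucleoside diphosphate kinase (-0.80 ± 0.14). The mitochondrial thymidine kinase Tk2 was called lower in YAP1-FAM118B (-0.39 ± 0.10) and YAP1-TFE3 (-0.48 ± 0.10).

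Of 11 polymerases that work outside the fork, 4, 2 and 7 were called higher in the 3 fusions in order (34.4%, 21.3% and 40.6% of all genes), and the base excision polymerase Polb was called lower in YAP1-MAMLD1-dR3R1 (-0.82 ± 0.17). Of 7 mitochondrial replication genes tested, 4, 2 and 4 were called higher and 0 lower. Of 19 E2F, RB and G1/S regulators, 13, 10 and 14 were called higher; E2f8 rose by 4.96 ± 0.38, 3.54 ± 0.36 and 5.98 ± 0.39, and Ccne1, which encodes cyclin E1, was called lower in YAP1-MAMLD1-dR3R1 (-0.99 ± 0.23). The shares of all genes called lower were 28.8%, 8.45% and 30% in the 3 fusions in that order.

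The replication genes were set beside 20 mitosis genes, which act later in the cycle. All 20 were called higher in each fusion against naive, and also in YAP1-TFE3 against YAP1-MAMLD1-dR3R1 and against YAP1-FAM118B. Their median log2 fold changes against naive were 4.81 in YAP1-MAMLD1-dR3R1, 4.12 with YAP1-FAM118B and 6.33 with YAP1-TFE3. The mean log2 CPM of the 42 replication genes less that of the 20 mitosis genes was 2.16 ± 0.15 in naive cortex, -0.15 ± 0.09 in YAP1-MAMLD1-dR3R1, -0.25 ± 0.02 with YAP1-FAM118B and -0.97 ± 0.13 with YAP1-TFE3 (SD, n = 3). The size of this difference depends on the lengths of the genes, so only its change between groups is read: it was lower in every tumour library than in every naive one, and lower in every YAP1-TFE3 library than in the other tumours.

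**Figure D5:**
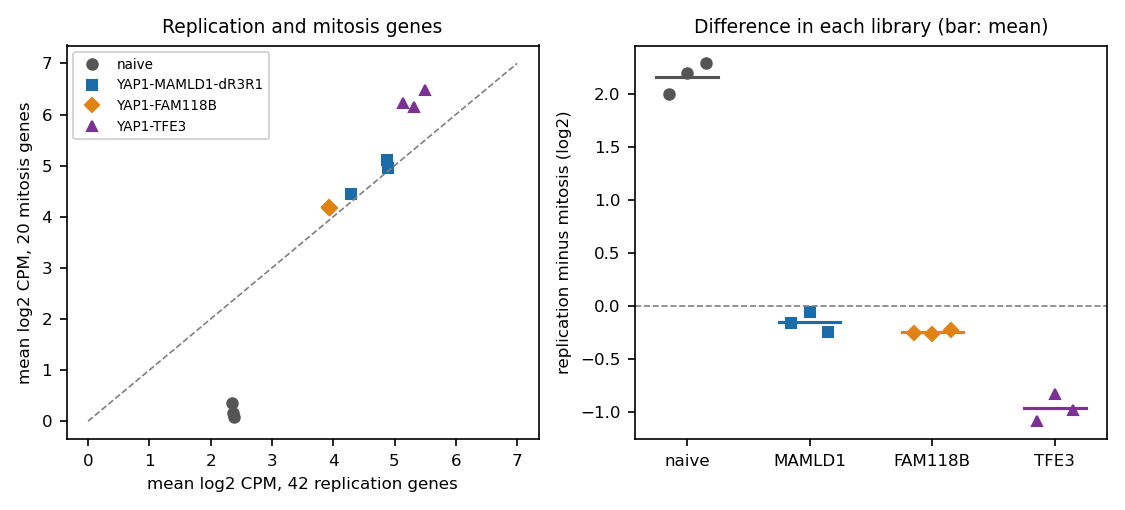
Left, mean log2 CPM of the 20 mitosis genes against that of the 42 replication genes in the 12 libraries, with a dashed line where both are equal; right, their difference by library with the mean as a bar. The naive libraries lie at 2.0 to 2.29, those of YAP1-MAMLD1-dR3R1 and YAP1-FAM118B between -0.27 and -0.06, and those of YAP1-TFE3 between -1.09 and -0.83.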

How the data were processed

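RNA-seq of 12 mouse libraries (3 per group) was read from 12 deposited tables of counts per gene symbol, unnormalized. Per the submitters' processing notes the authors used HTSeq and the mm10 build; no aligner, annotation or strand setting is stated there or in the labels. The members and lists were chosen with earlier results of these data known.

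Genes were filtered with edgeR 4.0.16 filterByExpr (minimum count 10), libraries scaled by TMM, and 1 quasi-likelihood model over the 4 groups fitted to 16364 genes. The 6 comparisons were called at a Benjamini-Hochberg adjusted p of 0.05 (R 4.3.3). Log2 CPM used a prior count of 2. The fit was first tested on simulated data with equal numbers of planted 2-fold and 4-fold changes. Most 2-fold changes were missed: 11 to 18 were recovered per comparison, against 51 to 65 of the 4-fold changes. A member that was not called can therefore still differ. Alternatives were DESeq2 1.42.0, other scalings and filters, robust dispersion, a test against 2-fold, the 2 groups alone, a replicate block and left-out libraries. Levels per length used GENCODE exon lengths (23376 of 24421 symbols matched).

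Values in every library are given for 27 members: the largest and smallest change per role and fusion, members not called in some fusion, and the 12 members with the smallest adjusted p between fusions. Libraries of a group differed beyond counting noise in every pair. Same-numbered libraries deviated together by a correlation of -0.11 to 0.32 (median 0.04, 18 pairs). For differently numbered libraries it was -0.42 to 0.36 (median -0.02, 36 pairs). The labels state no shared animal, litter or day, and the numbers were not taken to pair samples. Amino acid sequences were not analysed here. RefSeq promoters came from a table of GRCm38.p6.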

Additional observations from a re-analysis of the deposited data

Results flagged for a closer look

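Among the members, 2 differed between YAP1-TFE3 and each of the other 2 fusions by more than 2-fold when the difference itself was tested (edgeR glmTreat, Benjamini-Hochberg adjusted over all genes). For Rrm1, the large subunit of ribonucleotide reductase, YAP1-TFE3 exceeded YAP1-MAMLD1-dR3R1 by 1.39 on the log2 scale (adjusted p = 0.0467) and YAP1-FAM118B by 1.98 (adjusted p = 5.83e-04), and all 3 YAP1-TFE3 libraries lay above all libraries of the other groups. For Rrm2, the small subunit, the differences were 3.81 (adjusted p = 1.34e-04) and 4.71 (adjusted p = 2.78e-05), again with all 3 libraries above. The test against 2-fold was run with TMM scaling only. With libraries scaled by total count only, differences of YAP1-TFE3 against YAP1-MAMLD1-dR3R1 shifted by -0.19 (log2). The result for Rrm1 against YAP1-MAMLD1-dR3R1, close to the threshold, may therefore depend on the scaling. With 3 libraries in each group, single libraries were not screened as outlying.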

How the results depend on the processing

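Against naive cortex the numbers of members called higher ranged over single left-out libraries from 39 to 41 in YAP1-MAMLD1-dR3R1, 27 to 32 in YAP1-FAM118B and 36 to 42 in YAP1-TFE3, and no member called in the report turned its direction in these comparisons under any of the 23 settings. A test against a 2-fold change left 30, 20 and 33. Between fusions the same test left 0 members lower in YAP1-FAM118B than in YAP1-MAMLD1-dR3R1, 2 higher in YAP1-TFE3 than in YAP1-MAMLD1-dR3R1 and 17 higher than in YAP1-FAM118B. Without the 2-fold threshold the counts were 27, 17 and 37 with all libraries. Over left-out libraries those counts ranged from 6 to 36, 11 to 17 and 29 to 38, and the 2-fold test was not repeated there. For YAP1-FAM118B against YAP1-MAMLD1-dR3R1 the count was 17 with only those groups in the fit and 6 without naive replicate 2 and YAP1-FAM118B replicate 2; the cause of the spread was not tested.

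The replicate number as a block gave 40, 29 and 42 members higher against naive, and 25, 17 and 38 for the comparisons between fusions in the order above, so the replicate block moved no count by more than 1.5 times. Since the numbers share only a label, a call lost under the block is not read as a weaker effect.

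Directions turned for differences near 0. Rfc1 in YAP1-FAM118B against naive (0.05, not called) was -0.0172 with DESeq2 and -0.0176 with RLE factors. Rpa1 in the same comparison (-0.02, not called) was 0.0103 without a filter on low counts, 0.0365 with a filter of 1 CPM in 3 libraries, 0.00903 with only the groups compared and -0.0648 to 0.0918 over left-out libraries. Rfc1 in YAP1-TFE3 against YAP1-FAM118B (0.34, called) ranged from -0.0156, without YAP1-TFE3 replicate 2, to 0.376; the cause was not tested. The share of members with an E2F-type word was 38.2% with TTTCCCGC and TTTGGCGC alone, and the differences between replication and mitosis genes moved by less than their SD with prior counts of 0.5 or 5 and with library size only. Principal transcript lengths, an alternative chosen after seeing the data, moved 9 of 52 mean ratios per length by more than 1 SD. Depth limits most the members with few counts in naive cortex (Cdc6, Tk1, Orc1, Gins1, Mcm10 and Pole2, 4 to 20 counts a library).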
